A study of Rattus norvegicus with 24 samples.

Results

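The comparison described here sets the thyroids of rats given perchlorate for 14 days against those of rats given perchlorate for 1 day, with no change of diet. It uses 6 of the 24 arrays of the study, chosen by their labels: day 1 replicates 15, 16 and 18 (arrays C15, C16 and C18) and day 14 replicates 39, 40 and 42 (arrays G39, G40 and G42). All rats were adult male Sprague-Dawley animals, an outbred laboratory strain, and these 6 samples came from rats on normal diet whose drinking water held 95 mg of potassium perchlorate per liter. Every diet ran for 2 months plus 1 or 14 days, and perchlorate, where given, for those 1 or 14 days only. Untreated rats on normal diet and water (3 arrays a day, D at day 1 and H at day 14) and rats given an iodine-deficient diet together with perchlorate (3 arrays a day, A at day 1 and E at day 14) serve as the other time courses, and the remaining 6 arrays, from the deficient diet alone, entered only the shared estimate of spread. No label says that the samples are separate animals, so the p-values measure only how far these samples scatter, and some of that scatter may be technical.

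Perchlorate is an anion that competes with iodide at the sodium iodide symporter, the pump that loads follicular cells with iodide for thyroid hormone. When less hormone is made, the pituitary releases more thyrotropin, which acts through its receptor and cAMP in the follicular cell. Sustained thyrotropin drive is known to enlarge the gland: follicular cells grow and divide, the capillary net around the follicles expands, and the connective tissue and basement membranes are rebuilt. Day 1 and day 14 thus fall early and late in that known course, and the comparison asks which transcripts of the gland differ between them.

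Each value is the intensity of 1 probe set (short probes for 1 transcript) as log2(intensity + 16) after quantile normalization, and a difference is the day 14 mean minus the day 1 mean on that scale. Adjusted p-values are from limma fitted over all 24 arrays, and a gene was called at an adjusted p under 0.05. Array C18 stood apart from all others: its median absolute deviation from the other arrays was 0.692, against 0.277 in the next and 0.121 to 0.201 in the other 22. It carried high lymphocyte and skeletal muscle markers (2.58 and 2.56 above the median of the other arrays), but neither signal was peculiar to it. The lymphocyte markers were higher in C15 (3.71 above), and the muscle markers were higher in G42 (3.29 above). Results are therefore given with all arrays and without C18. A single array is named where leaving it out ended the call of a named gene, and for some list counts and medians. The part of lymphocytes, muscle and other such cells in the results was not tested.

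Seen gene by gene, 415 of 10643 genes rose between day 1 and day 14 (3.9%) and 211 fell (1.98%). Without C18, 386 rose (3.63%) and 94 fell (0.883%), and 263 genes rose and 49 fell in both fits (2.47% and 0.46%). Over probe sets the counts were 685 higher and 277 lower of 18625 (3.68% and 1.49%), and without C18 528 and 142 (2.83% and 0.762%). Of the probe sets that rose with all arrays, 56.2% were also called without C18, and of those that fell 24.91%. No probe set was called in opposite directions. The loss was not particular to C18: 314 higher and 76 lower were called without G39, and 218 and 56 without G42. By gene, 1.3% rose and 0.385% fell without G42. These counts are the background of the list counts given below without G39 or G42. The direction of the calls also depended on the scaling: without normalization, which left a shift of 0.225 in the median probe set, 1005 probe sets were higher and 37 lower (96.4% higher, against 71.2% after quantile normalization), or 602 and 25 genes (5.66% and 0.235%).

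**Figure D1:**
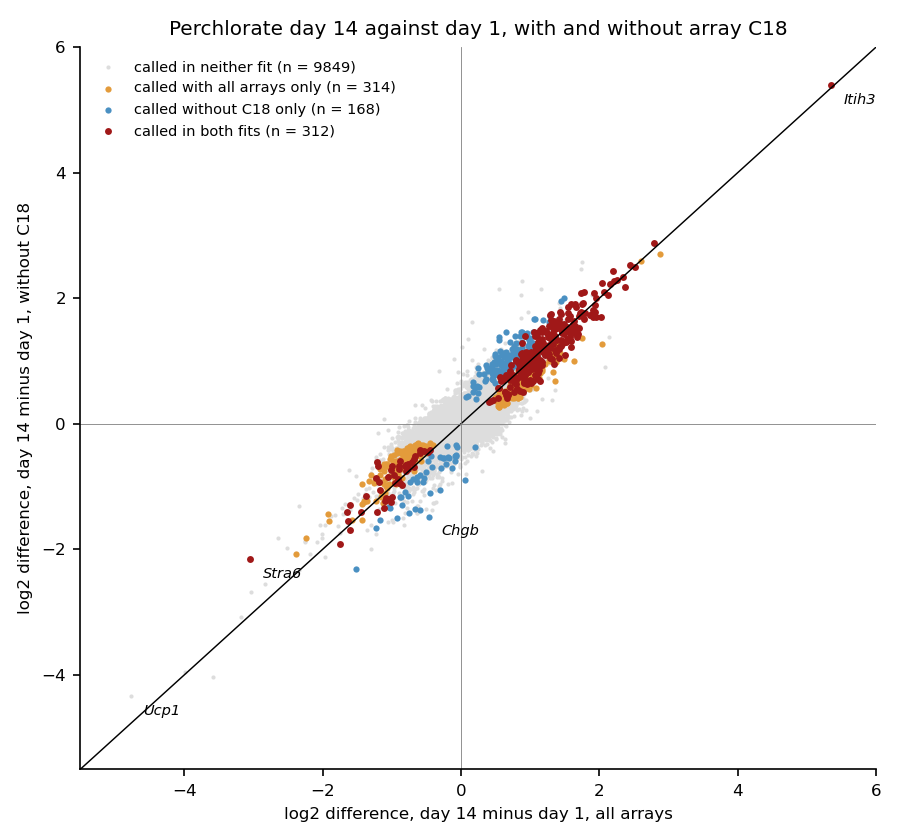
Log2 difference of each of 10643 genes between perchlorate day 14 and day 1, with all arrays (horizontal) and without array C18 (vertical); colours give the fit in which the gene was called and the line marks equal values. The 312 genes called in both fits lie mostly above 0, Itih3 far beyond all others, and Chgb moves away from 0 when C18 is left out.

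These calls draw on the spread shared by all 8 groups. In a fit of the 6 perchlorate arrays alone 1 probe set was called, that of Itih3, and with 5 arrays (C18 left out) 236 were, 218 higher and 18 lower. Leaving out C15 raised the number of called probe sets from 962 to 3317 and leaving out C16 to 1912, while leaving out G39 lowered it to 390 and G42 to 274. Without both C15 and C18, which leaves 1 array at day 1 that is assumed to vary like the other groups, 168 were called. The number of calls thus moved with single arrays of both days.

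The largest change by far was in Itih3, one of the inter-alpha-trypsin inhibitor heavy chains, serum-type proteins that become bound to matrix hyaluronan. It measured 7.01, 7.41 and 7.38 at day 1 (C15, C16, C18) and 12.58, 12.20 and 13.08 at day 14 (G39, G40, G42). All 3 arrays of day 1 lay at the level of the untreated rats (7.01 ± 0.16 at day 1 and 7.22 ± 0.04 at day 14, SD, n = 3), and all 3 of day 14 lay far above. The rise was 5.35 (SE 0.28, adjusted p = 1.84e-10), a fold of 40.9, and 5.40 without C18 (adjusted p = 7.05e-09). Of the genes named here it alone was called under every alternative, in the fit of 6 arrays at an adjusted p of 0.00428. Both other called genes of the hyaluronan list encode receptors for hyaluronan or other ligands on endothelial cells and macrophages, Lyve1 (up 1.59, adjusted p = 0.00503) and Stab1 (up 1.07, adjusted p = 0.0215; 0.77 and 0.157 without G42), so 3 of its 7 measured members rose and none fell in either fit, with a median of 0.70 over the list against -0.05 over all genes.

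Ninl, which encodes a centrosomal protein, rose with little spread. It measured 5.89, 6.78 and 6.40 at day 1 and 8.59, 8.53 and 8.73 at day 14, a rise of 2.26 (SE 0.21, adjusted p = 3.36e-06). Mab21l3 rose by 1.94 (adjusted p = 2.13e-05), from 8.52 to 8.71 over the day 1 arrays to 10.40 to 10.66. Aspg, an asparaginase, rose by 1.95 (adjusted p = 0.00291) and Smtnl2, a smoothelin-like protein, by 2.19 (adjusted p = 0.00562). For each of these 4 genes the arrays of the 2 days did not overlap and the call held without C18. Ninl, Aspg and Smtnl2 were named by a rule that required both, and Mab21l3 after its values were seen. Neither trait is therefore further support for them. Of all genes, 9.73% did not overlap upward and 10.7% downward (without C18 17.2% and 17.6%). In untreated rats these 4 genes showed no rise (differences of -0.18, -0.09, -1.35 and -0.93).

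Of 21 listed genes of iodide handling and hormone synthesis 10 were measured, and few of these were called between the days. Slc5a5, the sodium iodide symporter itself, measured 11.51, 11.98 and 12.19 at day 1 and 12.41, 12.65 and 12.33 at day 14. The 2 days did not overlap, but the rise of 0.57 (SE 0.19) missed the threshold (adjusted p = 0.0775) and passed it without C18 (0.72, adjusted p = 0.0443). All 3 day 1 arrays already lay above the untreated mean of that day (10.82 ± 0.24), though that difference of 1.07 was not called (adjusted p = 0.156), and at day 14 perchlorate exceeded untreated by 1.52 (adjusted p = 8e-05). Thyroglobulin (Tg), the scaffold on which hormone is formed, differed by -0.04 between days (adjusted p = 0.826). The thyrotropin receptor Tshr differed by -0.08, the deiodinase Dio1 by -0.26 and the iodotyrosine deiodinase Iyd by 0.23, none called. The peroxide-producing oxidase Duox2 and its maturation factor Duoxa1 differed by -0.59 and -0.69; neither was called with all arrays, and both were without C15 (-0.82 and -1.06, adjusted p = 0.0198 and 0.00792). The chloride channel Ano1 and the potassium channel Kcnq1 differed by -0.14 and -0.34, not called. Cybrd1, a ferric reductase, fell by 0.82 (adjusted p = 0.0278), a call lost without C18 (adjusted p = 0.125), G39 (0.113) or G42 (0.098). Of the 10 measured members of this list 0 rose and 1 fell with all arrays, and 1 rose and 0 fell without C18. Without C15 0 rose and 3 fell, beside 9.43% of all genes rising and 12.1% falling in that fit.

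Downstream of the thyrotropin receptor, the cAMP-degrading phosphodiesterase Pde4b changed most clearly. It measured 8.57, 8.89 and 8.50 at day 1 and 10.26, 10.06 and 10.31 at day 14. The 2 days were well apart and the rise was 1.56 (SE 0.15, adjusted p = 6.71e-06), or 1.48 without C18 (adjusted p = 3.41e-05), and both probe sets of the gene were called. Of the 18 measured members of the cAMP list it alone was called in both fits, and Pde8a, another phosphodiesterase, with all arrays only (0.61, adjusted p = 0.0353; 0.116 without C18); the median of the list was 0.02, and 0.04 without C18. The call of Pde8a was also lost on leaving out any single array of day 14. The thyroid transcription factor list had 0 called of 10 in either fit, with a median of -0.22. Without C15 it had 1 rise and 4 falls, with a median of -0.36, beside 9.43% of all genes rising and 12.1% falling in that fit.

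**Figure D2:**
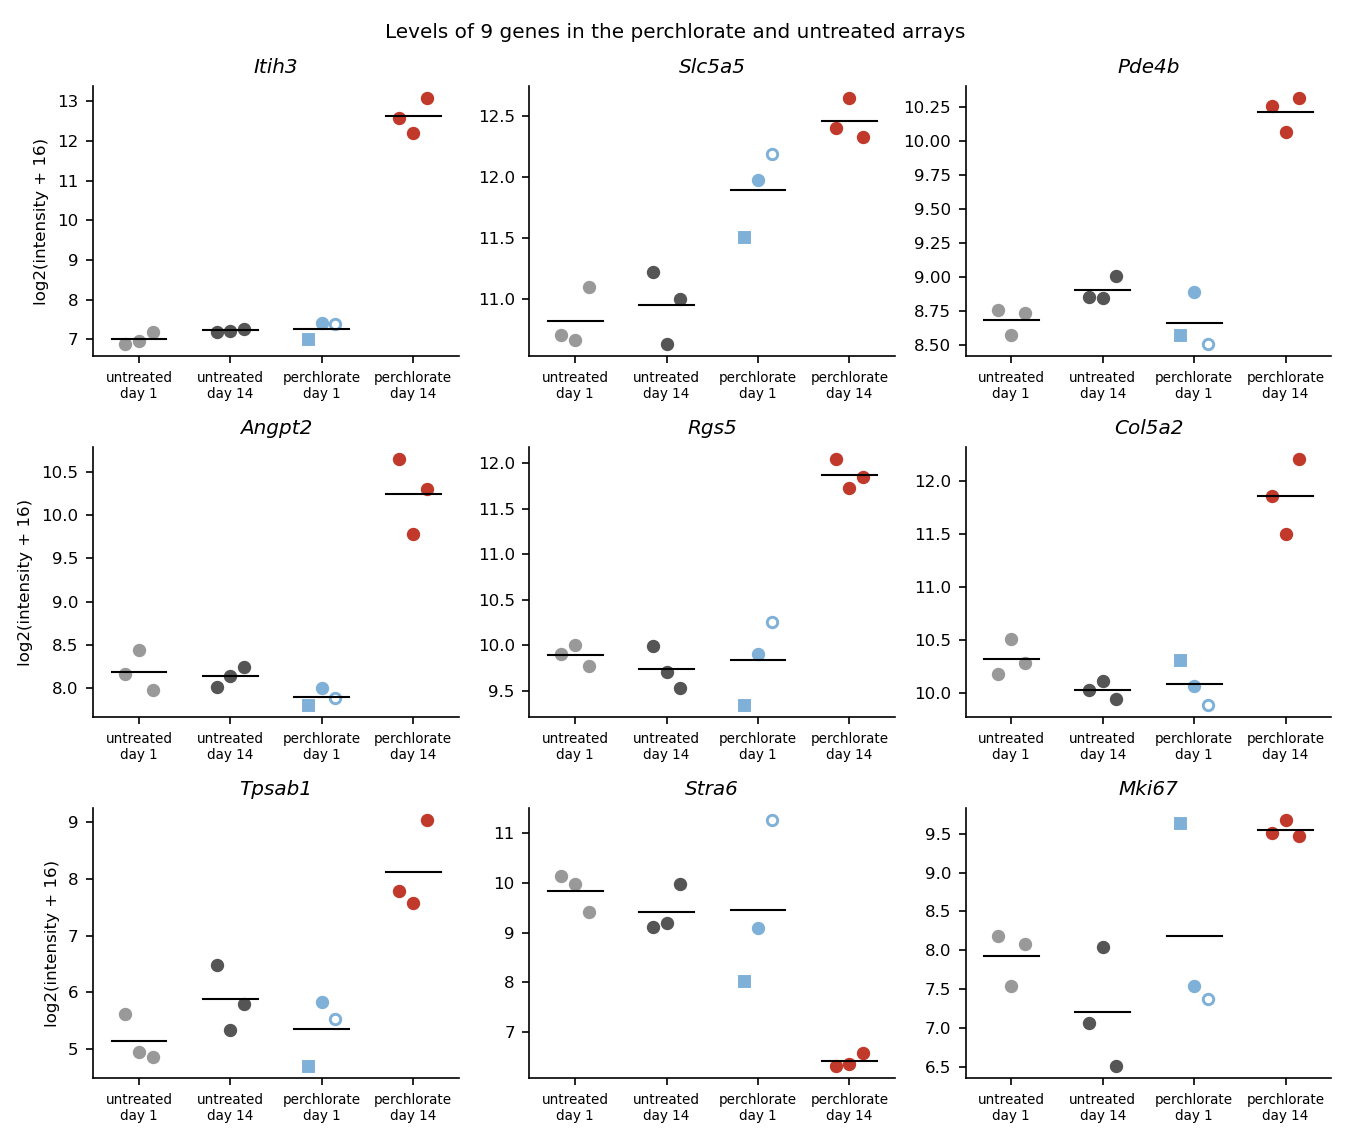
Levels of 9 genes as log2(intensity + 16) in each array of 4 groups of 3; bars are group means, the open circle is array C18 and the square is array C15. Itih3, Pde4b, Angpt2, Rgs5 and Col5a2 separate perchlorate day 14 from every other group, Slc5a5 is high at both perchlorate times, and for Mki67 C15 lies at the day 14 level.

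Many genes of the extracellular matrix rose. Of 18 measured basement membrane genes 9 rose and 1 fell, and without C18 12 rose and 1 fell, with medians of 0.89 and 0.87 where all genes had -0.05 and -0.03. Basement membranes are sheets of type IV collagen and laminin, linked by nidogens, under the follicular epithelium and around capillaries. The type IV collagen genes Col4a1 and Col4a2 encode chains of 1 molecule and lie head to head on chromosome 16 of the rat assembly GRCr8, transcribed away from each other. The stretch between both starts (chr16:84885521-84885596, 76 bases, from RefSeq promoter sequences, written 5′ to 3′ on the strand of Col4a1) is shown because both genes share it as upstream sequence; capitals mark the 1 GC box, GGGCGG on the other strand.

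Col4a2-Col4a1: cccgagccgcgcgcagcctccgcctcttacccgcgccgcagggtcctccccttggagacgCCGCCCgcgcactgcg

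This stretch is 78.9% G and C. A GC box (GGGCGG on either strand) was found in 18.1% of 33469 rat promoter windows of the same length directly upstream of the start; CCAAT and TATAAA, searched on both strands, had no match here and were found in 13% and 4.61% of the windows. A match describes the letters only. Col4a1 measured 11.68, 11.36 and 11.82 at day 1 and 12.87, 12.38 and 12.84 at day 14. Its arrays did not overlap and it rose by 1.08 (SE 0.24, adjusted p = 0.0124), a call lost without G39 or G42 (adjusted p = 0.0646 and 0.0702). Col4a2 measured 10.84, 10.89 and 11.50 at day 1 and 12.06, 11.69 and 11.97 at day 14. Its arrays did not overlap either, with a difference of 0.83 (adjusted p = 0.0591) that was called without C18 (1.04, adjusted p = 0.0332).

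Both nidogens rose. Nid1 measured 9.71, 9.67 and 9.26 at day 1 and 11.73, 10.94 and 11.63 at day 14, a rise of 1.89 (SE 0.28, adjusted p = 0.000711), although only 1 of its 2 probe sets was called. Nid2 rose by 1.58 (adjusted p = 0.000376). The laminin chains Lamc1 and Lamb1 rose by 1.33 and 1.12 (adjusted p = 0.00413 and 0.00763), and Col4a5, another type IV collagen chain, by 0.79 (adjusted p = 0.00199). The exception was Lamb3, a chain of the laminin made by surface epithelia. It measured 7.13, 7.45 and 8.20 at day 1 and 5.83, 6.21 and 5.94 at day 14, so all of day 14 lay below all of day 1, and it fell by 1.6 (SE 0.26, adjusted p = 0.00144; -1.30 without C18, adjusted p = 0.00638).

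In the interstitial matrix 14 of 35 measured genes rose and 0 fell, and 17 and 0 without C18, with 11 called in both fits and medians of 0.84 and 0.96. Without G42 8 rose, with a median of 0.57, and without G39 9. Col5a2, a fibril collagen chain, measured 10.31, 10.07 and 9.88 at day 1 and 11.86, 11.50 and 12.21 at day 14. The days were apart by more than the range within either, and the rise was 1.77 (SE 0.23, adjusted p = 0.000188). Fbn1, the microfibril protein fibrillin, rose by 1.79 (adjusted p = 0.000376), Col6a3 by 1.75 (adjusted p = 0.00291) and Col14a1 by 1.55 (adjusted p = 0.0023; 1 of 2 probe sets called). Loxl2, which crosslinks collagen, rose by 1.35 (adjusted p = 0.00267) and the abundant fibril collagen Col3a1 by 1.05 (adjusted p = 0.00113). Col1a1 differed by 0.64 and was not called (adjusted p = 0.22). Outside the lists, 3 secreted matrix proteins were among the largest rises: the proteoglycan asporin (Aspn) by 2.37, Cthrc1 by 2.15 and Srpx2 by 1.95 (adjusted p = 0.00296, 0.00275 and 0.000243). Summed intensity of 6 fibroblast markers was 18846 to 20976 at day 1 and 24615 to 34170 at day 14, and its part in the matrix result was not tested. In whole glands, more cells of a type and more RNA per cell cannot be told apart.

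Several vessel genes rose. Angpt2, an endothelial ligand of the receptor TIE2 that loosens vessel walls during remodelling, measured 7.80, 8.0 and 7.88 at day 1 and 10.65, 9.78 and 10.30 at day 14. The day 1 arrays were close together and far below all of day 14, and the rise was 2.35 (SE 0.30, adjusted p = 0.000188). Rgs5, a regulator of G protein signalling that marks pericytes, the mural cells of capillaries, measured 9.35, 9.90 and 10.26 at day 1 and 12.04, 11.73 and 11.85 at day 14. It rose by 2.04 (SE 0.37, adjusted p = 0.00285). Trpc6, a cation channel of smooth muscle and other cells, rose by 2.06 (adjusted p = 0.000458). Of 24 measured angiogenesis genes 7 rose and 1 fell, and 6 and 0 without C18, with medians of 0.71 and 0.81; the 1 that fell, Angpt4, was not called without C18 (-0.95, adjusted p = 0.0848). Without G39 2 of the 24 rose and without G42 1, with a median of 0.70 in each, and Angpt4 was called in neither. The semaphorin Sema3g rose by 1.01 (adjusted p = 0.00911; 0.052 without G42). Vegfa, the main growth factor for capillaries, measured 12.63, 12.87 and 11.95 at day 1 and 13.15, 13.19 and 13.15 at day 14. Its difference of 0.68 was called with all arrays (adjusted p = 0.0483) but not without C18 (0.41, adjusted p = 0.241) or any single array of day 14 (0.103 to 0.138).

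Of 20 measured endothelial markers 9 rose and 0 fell, and 7 and 0 without C18, with 6 in both and medians of 0.92 and 0.91. Their summed intensity was 24606 to 31286 in the day 1 arrays and 43424 to 59067 in the day 14 arrays, against 25798 to 29312 and 22128 to 29161 in untreated rats. Clec14a, a lectin-like receptor of endothelium, rose by 1.57 (adjusted p = 0.00277), from 9.83, 10.08 and 9.41 to 11.33, 11.21 and 11.50. Endoglin (Eng) rose by 1.59 (adjusted p = 0.0128) and the transcription factor Sox17 by 1.16 (adjusted p = 0.00637); both calls were lost without G42 (adjusted p = 0.0674 and 0.0514). Von Willebrand factor (Vwf) was called only without C18 (1.95, adjusted p = 0.0209; 1.44 and 0.0675 with it). Kdr, the VEGF receptor, differed by 0.65 and was not called (adjusted p = 0.177). The count was sensitive to single arrays: without G39 5 of the 20 were called, and without G42 1, beside 1.3% of all genes rising in that fit, while the median stayed at 0.81.

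Markers of 2 resident immune cells rose. Of 9 measured mast cell markers 6 rose and 0 fell in either fit, 5 of them in both, with medians of 1.47 and 1.66. Tpsab1, a mast cell tryptase, measured 4.69, 5.82 and 5.52 at day 1 and 7.78, 7.57 and 9.04 at day 14. All of day 14 lay above all of day 1, with a rise of 2.78 (SE 0.50, adjusted p = 0.00267); its day 1 signals are dim, near the offset of 16, so no fold is given. The mast cell protease Mcpt10 rose by 1.91 (adjusted p = 0.00275), and Ms4a2, a chain of the IgE receptor, by 1.67 (adjusted p = 0.00322). Carboxypeptidase A3 (Cpa3) rose by 2.21 and Fcer1a, another IgE receptor chain, by 1.42 (adjusted p = 0.00935 and 0.0243). Both calls were lost without G42 (0.0757 and 0.166). Tpsb2 was called only without C18 (1.66, adjusted p = 0.00087; 0.0669 with it). Summed intensity of the mast cell markers was 984 to 1490 at day 1, 2514 and 2946 in G39 and G40, and 7197 in G42, so that array was the highest by far; without it 3 of 9 rose and the median was 1.07. Some of these proteases, such as the tryptases among themselves, are close copies, and their probe sets may share signal.

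Of 15 measured macrophage markers 5 rose and 0 fell in either fit, 4 of them in both, with medians of 0.71 and 0.96. Mrc1, the mannose receptor of tissue macrophages, measured 8.18, 8.11 and 8.55 at day 1 and 9.74, 9.32 and 10.13 at day 14, a rise of 1.45 (SE 0.22, adjusted p = 0.00107). Adgre1, the F4/80 antigen, rose by 1.49 (adjusted p = 0.00127). Aif1 was called only without C18 (1.33, adjusted p = 0.013; 0.0532 with it), and Cd68 differed by 0.55 (adjusted p = 0.212). Without G42 2 of the 15 rose, with a median of 0.40, and without G39 3. Ctss and Ctsh, cathepsins that degrade protein in the lysosome, rose by 1.19 and 0.95 (adjusted p = 0.00981 and 0.0023; Ctss 0.0818 without G42). They were among 3 risers, with Ctsl, of 19 measured lysosome genes whose median was 0.04. In the interferon list 1 of 20 was called, Ifit2 (1.71, adjusted p = 0.0023), a share near the 3.9% of all genes that rose. The median of that list was 0.57, but 0.12 without G42 and 0.21 without C15, where 3 rose beside 9.43% of all genes.

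Of 20 measured growth factors and their binding proteins 3 rose, 2 of them in both fits, with a median of 0.22. Those 2 were transforming growth factors, and the other was the receptor Pdgfrb (1.31, adjusted p = 0.0262; 0.0975 without C18). Without G39 1 of the 20 rose, and the call of Pdgfrb was lost without G39 or G42. Tgfb3 rose by 1.10 (adjusted p = 0.00199), from 8.27, 8.02 and 7.94 to 9.39, 8.89 and 9.25. Tgfb2 rose by 1.15 (adjusted p = 0.00909; 0.0507 without G39; 1 of 2 probe sets called).

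**Figure D3:**
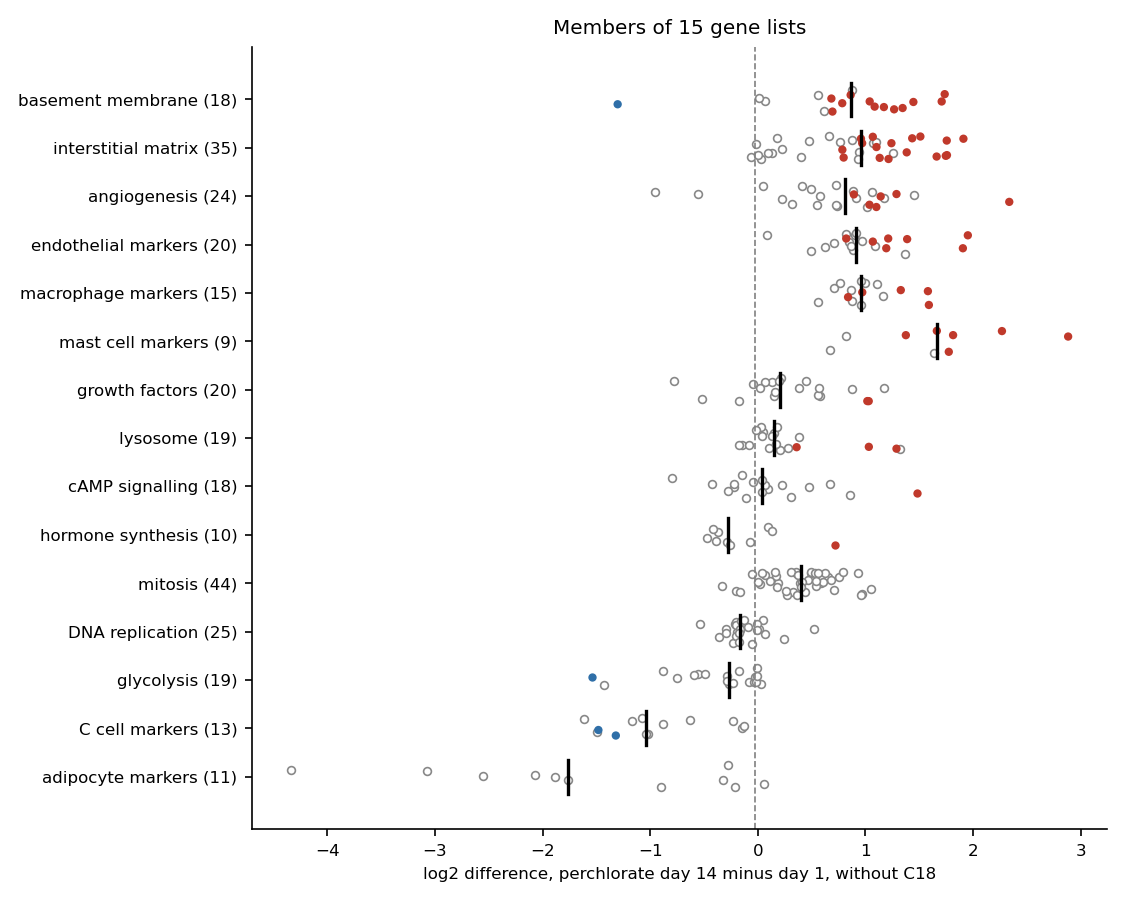
Log2 difference between perchlorate day 14 and day 1, without array C18, of every measured member of 15 gene lists (number of members in brackets); filled points were called, higher in red and lower in blue, black bars are list medians and the dashed line is the median of all genes. Matrix, vessel, macrophage and mast cell lists lie right of the line, at medians of 0.81 to 1.66, and C cell and adipocyte markers lie left of it.

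Cell division gave a result that turned on C15. Of 44 measured mitosis genes 0 were called with all arrays and 0 without C18, although 40 differed upward in each fit, with medians of 0.50 and 0.40 (0.32 without C16). Mki67, a protein of dividing cells, measured 9.64, 7.54 and 7.38 at day 1 and 9.50, 9.67 and 9.47 at day 14. Array C15 thus lay at the level of day 14 and both other day 1 arrays lay well below it, with untreated rats at 7.93 ± 0.34 and 7.20 ± 0.78. Cyclin A2 (Ccna2) showed the same order, at 8.12, 5.87 and 5.76 against 7.63, 7.82 and 7.36. The mean of the list was 8.34 in C15, 7.22 and 7.36 in C16 and C18, and 8.01 to 8.35 at day 14. Without C15, 15 of 44 rose and 0 fell, beside 9.43% of all genes rising in that fit, with a median of 0.79; Mki67 then rose by 2.09 (adjusted p = 0.0114) and the mitotic kinase Melk by 1.86 (adjusted p = 0.00415). In C15 the lymphocyte markers were also the highest of the 6 arrays (Cd3d, a T cell receptor chain, 10.74 against 6.03 in C16 and 10 in C18, and 5.95 to 7.01 at day 14); their part in the mitosis result was not tested. The DNA replication list had 0 called of 25 in either fit, with a median of -0.07. That median turned to 0.20 without C15 (1 fall, beside 12.1% of all genes) and was -0.35 without C16 (4 falls). Over all probe sets, 807 of 18625 were called lower without C16. E2f2, a cell cycle transcription factor also made in lymphocytes, fell by 0.93 (adjusted p = 0.00981; 0.0646 without G39), from 10.12, 9.12 and 9.63 to 8.44, 8.82 and 8.81, with C15 again highest.

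**Figure D4:**
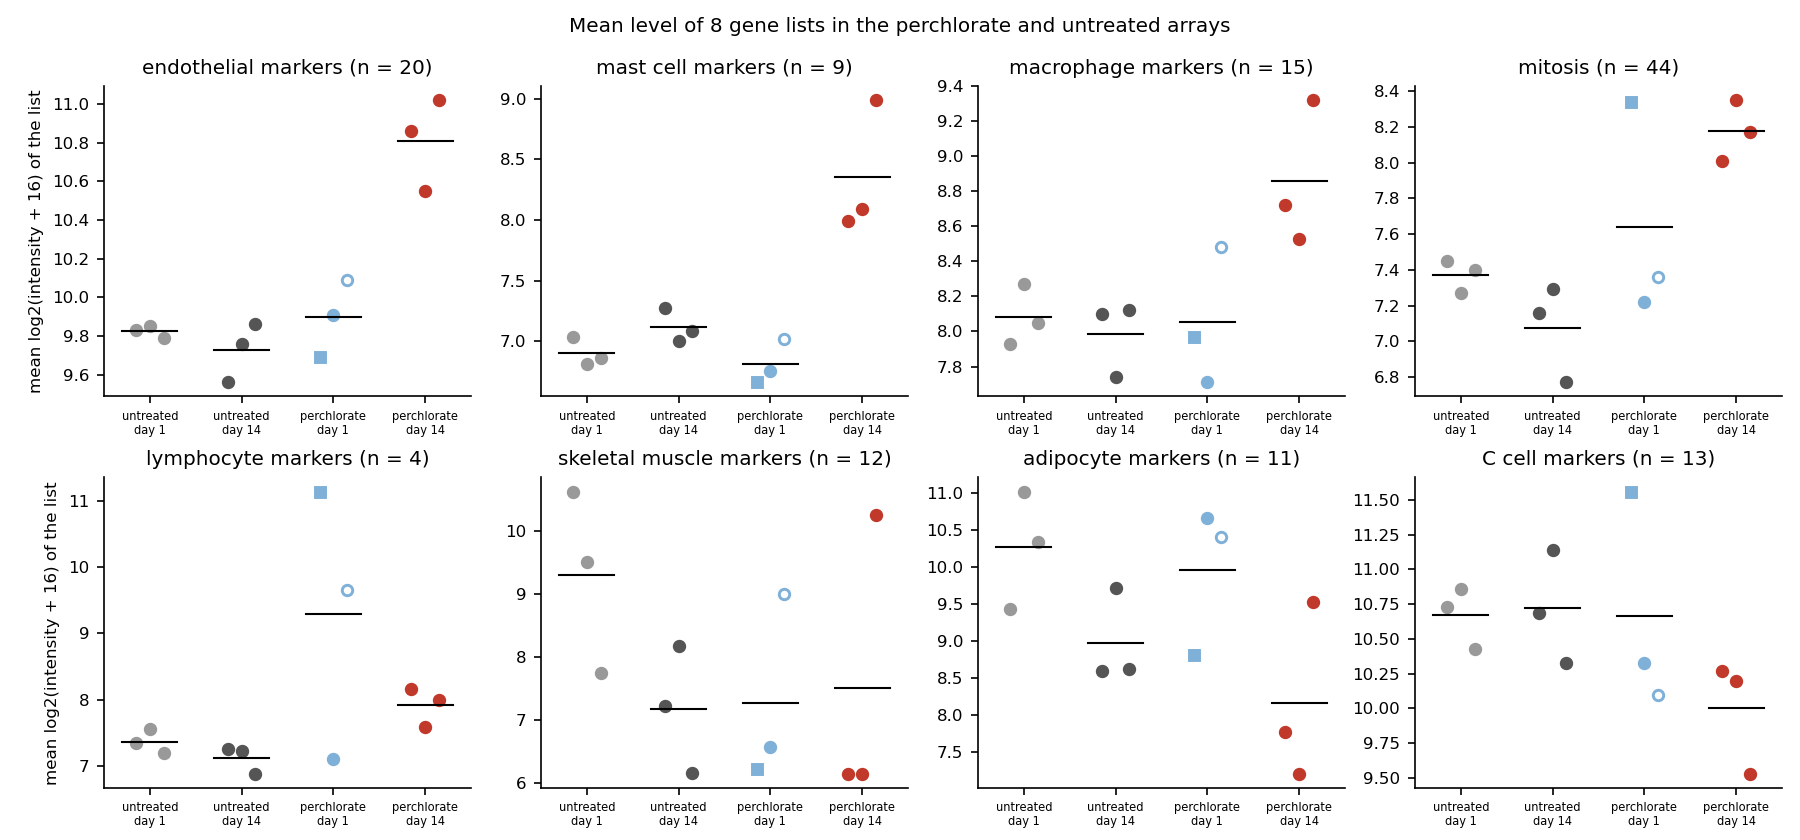
Mean log2(intensity + 16) over the measured members of 8 gene lists in each array of 4 groups of 3; bars are group means, the open circle is C18 and the square is C15. Endothelial, mast cell and macrophage markers are highest at perchlorate day 14. C15 is high for mitosis genes, lymphocyte markers and C cell markers. For muscle markers G42 (10.26) is the highest perchlorate array, below the untreated day 1 array D21 (10.63).

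With all arrays fewer genes fell than rose, and a smaller share of the falls held without C18. Without C15 the order turned, with 1286 genes lower and 1004 higher (12.1% and 9.43%). The largest fall called in both fits was that of Stra6, the receptor through which cells take up retinol from its carrier protein. It measured 8.02, 9.10 and 11.26 at day 1 and 6.32, 6.36 and 6.58 at day 14, so day 14 was low and uniform while day 1 was widely spread, with C18 the highest. It fell by 3.05 (SE 0.58, adjusted p = 0.00376), and without C18 the difference was -2.15 (adjusted p = 0.0185); 3 of its 4 probe sets were called, and 2 without C18. Untreated rats had 9.85 ± 0.38 and 9.42 ± 0.48, so that the day 14 arrays also lay below them. Shmt1, an enzyme that moves carbon units from serine to folate, measured 8.47, 8.90 and 9.35 at day 1 and 7.38, 7.64 and 7.59 at day 14. Its arrays did not overlap and it fell by 1.37 (adjusted p = 0.00144). C13h1orf116 fell by 1.63 (adjusted p = 0.000188) and Gramd2a by 1.6 (adjusted p = 0.00113). Both kept the call without C18, which the rule that named them required. Surfactant protein D (Sftpd), a collectin of mucosal surfaces, fell by 1.76 (adjusted p = 0.022), lost without G40 or G42 (0.0676 and 0.135), and C10h16orf89 fell by 1.66 (adjusted p = 0.00873), lost without G39 (0.0646). Defensin Defb1 fell by 1.90, and the lactate exporter Slc16a3 fell by 1.92 (adjusted p = 0.0119 and 0.0114), and neither was called without C18 (0.0645 and 0.0671) or G39 (0.087 and 0.0541). With Slc16a3, the glycolytic enzymes Pfkl and Eno2 made 3 falls among 19 glycolysis genes (median -0.38); without C18 the 1 fall was Slc16a1, another lactate carrier (median -0.27). Without C15 6 fell, and without G39 or G42 0 did. The call of Pfkl was also lost without C16, and that of Eno2 without C15 or G40.

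Few markers of neighbouring cells were called, and their levels varied between arrays. C cells are the calcitonin cells between the follicles, and their list had a median of -0.69, and -1.04 without C18, with all 13 members differing downward in both fits. Chromogranin B (Chgb) measured 13.40, 11.59 and 9.41 at day 1 and 11.27, 11.33 and 10.42 at day 14. Array C18 lay below and C15 above all of day 14, and Chgb was called only without C18 (-1.48, adjusted p = 0.0333), as was Uchl1 (-1.32, adjusted p = 0.031), while Pcsk1n was called only with it (-1.16, adjusted p = 0.033). The call of Pcsk1n was also lost without C15, G39 or G42. Calca, the calcitonin gene, differed by -0.02 (adjusted p = 0.949). Summed intensity of the list was 65487 in C15, 39705 in C16 and 32191 in C18, and 21963 to 38155 at day 14; without C15 the median was -0.13 and 0 were called, and without G42 it was -0.39 and 0 were called. Adipocyte markers had a median of -2.01 with 0 called of 11, and without C15 8 fell, beside 12.1% of all genes falling in that fit; untreated rats had a median of -0.88 over the same days. Ucp1, the uncoupling protein of brown fat, measured 8.64, 12.49 and 11.86 at day 1 and 4.29, 4.96 and 9.44 at day 14, and differed by -4.71 in untreated rats. The lowest and highest arrays of day 14 were thus further apart than the means of the days. Skeletal muscle markers had 0 called of 12 and a median of 0.10, which was 1.13 without C18 and turned to -1.29 without G42, to -0.44 without C15 (1 fall) and to -0.24 without C16, with G42 the highest at a summed intensity of 26825 against 4496 and 6485 in G39 and G40.

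Untreated rats gave the course of the same 13 days without perchlorate. Between their days 0 probe sets were called with limma (0% of 18625; 765 at an unadjusted p under 0.05; 5 with array quality weights; 1 without array D22). The difference between both time courses was tested as a contrast of contrasts, which called 91 probe sets higher and 12 lower (0.489% and 0.0644%), and 155 and 24 without C18 (0.832% and 0.129%). This second comparison shares the perchlorate arrays with the first. Its count of 103 fell to between 30 and 56 when G39, G42 or any 1 of the 6 untreated arrays was left out (34 without G39, 30 without G42, 48 without D22, 56 without D21, 37 without D24, 44 without H43, 33 without H44 and 56 without H47) and was 317 without C15. The difference of differences was 5.14 for Itih3 (adjusted p = 3.54e-07), 2.44 for Ninl (0.000366), 2.03 for Mab21l3 (0.00205) and 2.49 for Srpx2 (0.00212). For Aspg it was 3.31 (adjusted p = 0.00319), a rise of 1.95 under perchlorate minus a difference of -1.35 in untreated rats. Matrix genes passed as well, among them Col5a2 (2.07, adjusted p = 0.00349), Nid2 (1.80, 0.00738), Col3a1 (1.35, 0.00752), Fbn1 (1.97, 0.0101) and Nid1 (2.02, 0.0217). Pde4b passed with 1.34 (adjusted p = 0.0044), Angpt2 with 2.40 (0.00896), Mrc1 with 1.54 (0.0316) and Tgfb3 with 1.15 (0.0477; 0.054 without C18). On the lower side were Lamb3 (-2.18, adjusted p = 0.0062) and C13h1orf116 (-1.80, 0.00491). Among the lists, 5 of 35 interstitial matrix genes and 3 of 18 basement membrane genes differed upward between the courses, and 0 of 20 endothelial and 0 of 9 mast cell markers did; without C18 these counts were 8, 3, 0 and 1. For Slc5a5 the difference was 0.44 (adjusted p = 0.52), and for Stra6 -2.62 (adjusted p = 0.16).

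For a clock gene called under perchlorate, untreated rats also had a lower value at day 14. The clock repressor Nr1d1 fell by 1.18 between the perchlorate days (adjusted p = 0.00997; not called without C18, G39 or G42, 0.0506 to 0.0679). In untreated rats it differed by -1.44, which was not called. The difference between the courses was 0.27 (adjusted p = 0.792), not called either, which does not show that both courses were equal. The clock list had 1 fall of 16 in either fit, Nr1d1 with all arrays and Bhlhe41 without C18 (-1.16, adjusted p = 0.017), and 0 without G39 or G42.

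Rats given the iodine-deficient diet and perchlorate together gave a second perchlorate course; none of its arrays enters the means compared above, though all 24 share the normalization and the estimate of spread. In it 248 probe sets rose and 92 fell (1.33% and 0.494%); in the fit without C18, 698 rose and 555 fell (3.75% and 2.98%). With all arrays 136 probe sets were called in both courses in the same direction, 14.14% of the 962 of perchlorate alone and 40% of the 340 of the combined treatment, and 1 was called in opposite directions. Without C18 it was 240, 35.8% of 670 and 19.2% of 1253, again with 1 opposite. Of the 962, 88.36% had the same sign in the combined treatment. Their median size was 0.971 under perchlorate alone and 0.424 in that direction under both. In untreated rats 51.25% of them had the same sign. The 962 were chosen by their call under perchlorate alone, which favours large values there, so both sizes cannot be compared evenly. Of the 670 called without C18, 92.7% had the same sign in the combined treatment and 41.6% in untreated rats. Over all 18625 probe sets the correlation between both perchlorate courses was r = 0.417, and 0.444 without C18, as a description across probe sets that share a scale and a filter.

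The direct test of perchlorate alone against the combined course called 1 probe set (0.00537%), that of Itih3, which rose by 2.82 more under perchlorate alone (adjusted p = 0.0107; 2.88 and 0.0302 without C18). In the combined treatment it rose by 2.53 (adjusted p = 0.000232). Rats of that course had eaten the deficient diet for 2 months before day 1, so both courses need not start at the same level. The test compares changes over time, not levels, and the part of the starting level was not tested. No other gene was shown to differ between both courses, with 2131 probe sets at an unadjusted p under 0.05 and 34 called with array quality weights. That count was 70 without C16, 2 without C15 or G39, and 0 without G42, A3, A6, E27 or E29, so the call for Itih3 also rested on these arrays. Side by side, Cthrc1 rose by 2.15 under perchlorate alone and by 2.53 under both (adjusted p = 0.00349), Col5a2 by 1.77 and 1.39 (0.00584), Fbn1 by 1.79 and 1.5 (0.00584) and Angpt2 by 2.35 and 1.61 (0.00877). Pde4b differed by 0.57 in the combined course (adjusted p = 0.0533), Cpa3 by 0.69 (0.507) and Stra6 by -1.48 (0.196), none called in the fit of all arrays. The median of the mitosis list was 0.85 in the combined course, with 0 called of 44, and that of the endothelial markers 0.63, with 0 called of 20.

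**Figure D5:**
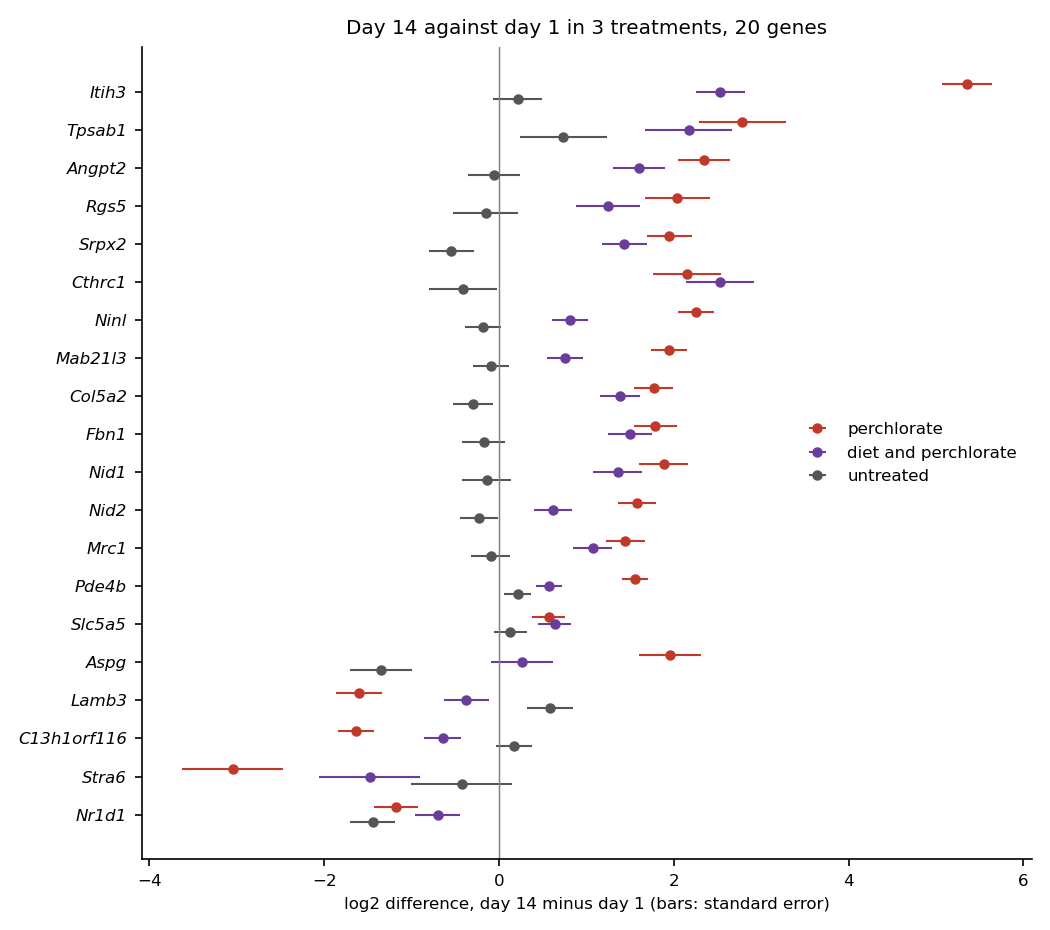
Log2 difference between day 14 and day 1 of 20 genes under perchlorate, under diet and perchlorate, and in untreated rats, from the fit of all 24 arrays; bars are standard errors. Most genes that rose under perchlorate alone lie between that value and the untreated one in the combined course. Many of the genes were picked for their difference under perchlorate alone, which favours large values there. Itih3 shows the widest gap, and Nr1d1 is lower at day 14 in all 3 courses.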

How the data were processed

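Thyroid RNA of 24 samples in 8 groups of 3 was hybridised to Affymetrix rat arrays. The authors deposited 1 linear intensity for each probe set and sample, and the submitters' processing notes name GCOS, the scanner maker's software; its version, settings and scaling target are not given in the sources used here, so the number of arrays limits the precision. All 31099 probe sets were read, 57 controls left out, values taken as log2(intensity + 16) and quantile normalized (array medians were 6.63 to 7.19 before), and the 18625 above the 40th percentile of mean signal tested. limma 3.58.1 in R 4.3.3 fitted 1 mean per group over 24 arrays, with eBayes, a mean-variance trend and Benjamini-Hochberg adjustment over all probe sets tested, two-sided; "without C18" drops that array before normalization. On simulated data the script recovered 58% of changes of 1 and 97% of changes of 2 (log2), with 7 false among 162 calls. The simulated noise was independent between probe sets and of equal spread in all arrays, with no array like C18. These rates therefore need not hold for the arrays used here. Correlations between arrays of a group were 0.851 to 0.98 and 0 pairs were identical.

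A gene is its brightest probe set with 1 symbol in the platform annotation (20826 of 31042 probe sets; 436 had several, 9780 none), and 20758 of these symbols were found in RefSeq GRCr8. Of 39 lists with 756 genes, 603 were measured. Genes named are the largest rises and falls called in both fits without overlap (15 each), those called only without C18 (6 each), all measured hormone synthesis genes, up to 4 of each other list by smallest p, and the 6 largest either way of each contrast of contrasts. Fewer are printed, and Mab21l3, Mki67, Col4a1, Col4a2, Lamc1, Lamb1, Col6a3, Col3a1, Angpt4, Kdr, Ms4a2, Cd68, Pdgfrb, Ccna2, Eno2 and Calca were named after their values were seen. Members and lists were chosen with earlier results of these data known. Alternatives were the arrays left out, scaling, pseudocount, filter, array weights, variance trend and fits of the perchlorate arrays alone.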

Additional observations from a re-analysis of the deposited data

Results flagged for a closer look

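The change over time under perchlorate differed from that in untreated rats, by the contrast of contrasts in limma, for 24 of the genes named above. Over all 10643 genes 62 differed upward and 12 downward. Genes were named in part by this contrast and by the perchlorate difference within it, so the count of 24 follows from that choice. Each value is the perchlorate difference minus the untreated difference (log2), with its adjusted p. The largest belonged to Itih3 (5.14, adjusted p = 3.54e-07), Aspg (3.31, 0.00319) and Smtnl2 (3.12, 0.0237). Matrix genes followed: Cthrc1 (2.56, 0.0354), Srpx2 (2.49, 0.00212), Col5a2 (2.07, 0.00349), Nid1 (2.02, 0.0217), Col6a3 (1.99, 0.0477), Fbn1 (1.97, 0.0101), Nid2 (1.80, 0.00738), Lamc1 (1.58, 0.0477) and Col3a1 (1.35, 0.00752). Vessel and signalling genes were Angpt2 (2.40, 0.00896), Trpc6 (1.83, 0.0477), Pde4b (1.34, 0.0044) and Tgfb3 (1.15, 0.0477). Macrophage and interferon genes were Mrc1 (1.54, 0.0316), Adgre1 (1.53, 0.0417) and Ifit2 (2.02, 0.0322). Ninl (2.44, 0.000366) and Mab21l3 (2.03, 0.00205) completed the positive side. Negative values belonged to Defb1 (-2.74, 0.0417), Lamb3 (-2.18, 0.0062) and C13h1orf116 (-1.80, 0.00491). Without C18, 3 of the 24 missed the threshold: Defb1 (-2.39, adjusted p = 0.0672), Lamc1 (1.52, 0.0599) and Tgfb3 (1.09, 0.054).

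Against the combined treatment, the change of Itih3 over time differed by 2.82 (adjusted p = 0.0107), with both courses rising.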

How the results depend on the processing

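No paired analysis was possible because the groups compared share no replicate numbers. No named gene called with all arrays changed direction under the alternatives run, and genes not named were not checked for this. Differences on both sides of 0 were found for 7 named genes that were not called (Ano1, Calca, Chgb, Dio1, Kcnq1, Tg and Tshr). Of 62 named genes called with all arrays, 38 kept the call under every alternative except the fits restricted to the perchlorate arrays, 61 lost it with 6 arrays alone and 29 with 5; of 26 not called, 18 were called under at least 1 alternative. For perchlorate day 14 against day 1, leaving out 1 array gave 274 to 3317 called probe sets, array quality weights gave 1568, both C15 and C18 left out 168 (chosen after seeing the data, as were list counts without C15), the 6 perchlorate arrays alone 1 and 5 of them 236. For the difference from the untreated course, leaving out 1 array gave 30 to 317, both C18 and D22 left out 62, no filter 63 and array weights 511, against 103. For the difference from the combined course, leaving out 1 array gave 0 to 70, both C18 and D22 left out 2, values as deposited 4, median centring 3, a pseudocount of 64 2 and array weights 34, against 1. In the untreated course, leaving out 1 array gave 0 to 1, both C18 and D22 left out 1 and array weights 5, against 0. The cause of these changes was not tested. The share of calls that were higher was 51.7% without C15, 57.8% without C16, 78.8% without C18, 96.4% as deposited and 92.4% with 5 arrays, against 71.2%. Signal over background was not examined, so differences of dim probe sets are less certain.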
